A study of Rattus norvegicus with 8 samples.

Results

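Csf1 (ENSRNOG00000018659) encodes colony stimulating factor 1, and it is 1 of the 32623 genes in the count table of this study. The gene was chosen by its identifier, and its row was read in all 8 libraries. Each library was made from the ipsilateral L4-L6 dorsal root ganglia (DRGs) of 1 adult Sprague-Dawley rat, with 2 naïve males, 2 males with chronic constriction injury (CCI), 2 naïve females and 2 females with CCI. In CCI the sciatic nerve is tied loosely with silk, and the DRGs were taken on day 14. The control rats had no surgery, so the comparison of CCI with naïve rats includes the effects of skin and muscle incision. According to the study's methods, CCI rats whose paw withdrawal threshold did not fall enough were left out, and the stage of estrus was not determined.

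CSF1 is a cytokine that is made in secreted and membrane-bound forms. Its receptor, the tyrosine kinase Csf1r, is carried by macrophages and by microglia, which need its signal to survive and divide, and IL-34 is the other ligand of the same receptor. In sensory neurons Csf1 is known as a gene that is switched on by damage to the axon, and the protein is known to act both within the ganglion and on microglia of the spinal cord. Whole ganglia hold neurons, satellite glia, Schwann cells, fibroblasts, vessels and immune cells, and the counts do not tell which of these cells made the Csf1 transcripts. In such bulk samples fewer cells of a type and less RNA per cell cannot be told apart.

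The libraries held between 39489103 and 60818457 counts, of which Csf1 took between 586 and 1259. Values are given as CPM (the counts scaled to a common library size) after scaling with edgeR's TMM factors, which ranged from 0.952 to 1.07. Of the genes in the table, 16988 passed a filter on low counts and were tested, Csf1 among them.

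In naïve males Csf1 was expressed at 13.6 CPM and 13.97 CPM, a mean of 13.8 ± 0.243 CPM (SD, n = 2). In naïve females the rats had 12.7 CPM and 13.9 CPM, with a mean of 13.3 ± 0.843 CPM (SD, n = 2). The 4 naïve rats therefore lay within a narrow range, and the 95% counting intervals of their values (exact Poisson) overlapped, with an upper bound of 13.7 CPM in the lowest rat and a lower bound of 13 CPM in the highest.

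After CCI the males had 20.2 CPM and 21.5 CPM (20.8 ± 0.905 CPM, SD, n = 2). The females with CCI had 32.5 CPM and 30.01 CPM (31.3 ± 1.79 CPM, SD, n = 2). All 4 injured rats lay above all 4 naïve rats, and both injured females lay above both injured males. The order of the groups was thus naïve females, naïve males, CCI males and CCI females, in which only the neighbouring naïve groups overlapped. The share of all genes with this order was not counted. Groups of 2 rats are often separate: CCI lay above naïve in 36.3% of genes tested in males and 30.5% in females. Injured females lay above injured males in 24.7%. The spread between the 2 rats of a group was small for this gene, since their log2 CPM differed by 0.036 (naïve) and 0.088 (CCI) in males and by 0.13 (naïve) and 0.12 (CCI) in females, against medians over all genes tested of 0.13, 0.12, 0.15 and 0.13 in the same order. The intervals cover counting error only.

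**Figure D1:**
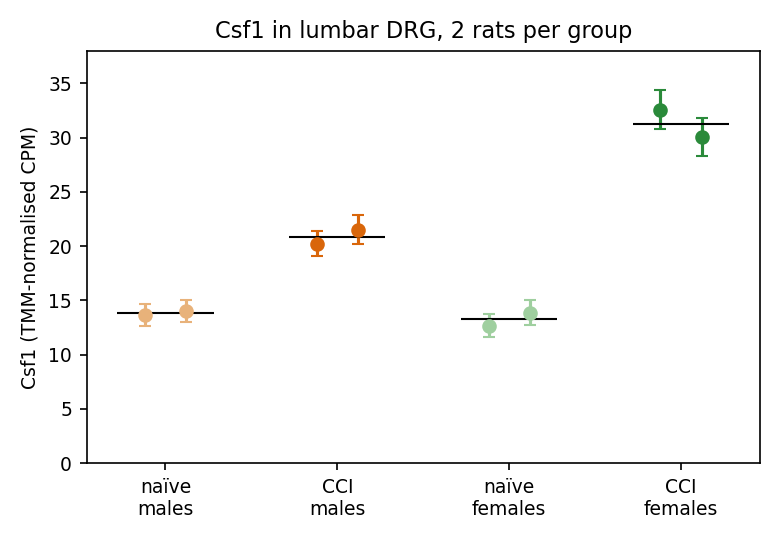
Csf1 expression in TMM-normalised CPM (vertical axis, from 0) in each of the 8 libraries, by group. Points are single rats with 95% Poisson counting intervals and lines are group means, and the 4 naïve rats sit between 12.7 and 13.97 CPM, the CCI males at 20.2 and 21.5 CPM and the CCI females at 32.5 and 30.01 CPM.

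To determine the effect of nerve injury on Csf1 within each sex, the 4 libraries of that sex were fitted with edgeR's quasi-likelihood model, with Benjamini-Hochberg adjustment of p over all genes tested. Calls required an adjusted p under 0.05 together with an absolute log2 fold change (log2FC) above 0.5. In males Csf1 was upregulated by 1.51-fold (log2FC 0.60, SE 0.075, adjusted p = 0.00685). Of all genes tested, 9.05% were called as upregulated in males, and Csf1 held rank 1581 by log2FC. Both CCI males lay above both naïve males, as they did in 36.3% of genes tested. The log2FC in males lies near its threshold, while DESeq2 kept the call (adjusted p = 2.1e-05). With single males left out the log2FC ranged from 0.55 to 0.65. The call was lost without the first CCI male, where the log2FC was 0.65. That fit of 3 libraries leaves 1 CCI male and takes the spread from the naïve males. All the other genes called in males lost their calls in it as well, so the loss was not particular to Csf1.

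In females Csf1 was upregulated by 2.34-fold (log2FC 1.23, SE 0.10, adjusted p = 0.00114). A smaller share of genes, 3.69%, was called as upregulated in females, and Csf1 held rank 339 by log2FC and rank 48 by p. Both CCI females lay above both naïve females, as in 30.5% of genes tested. With single females left out the log2FC ranged from 1.16 to 1.30 and the adjusted p from 1.3e-07 to 0.0369. Each of these fits has a group of 1 rat, which is assumed to vary like the remaining group. Csf1 was among the 397 genes called as upregulated in both sexes, 2.34% of those tested.

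With 2 rats in each group, exact enumeration for a single gene reaches a 2-sided p of 0.333 at best, so these adjusted p-values rest on a model that shares the spread across genes. Over all 8 rats the mean log2 CPM of Csf1 was 0.91 higher after CCI. The exact permutation test with labels exchanged within each sex gave p = 0.0556 (2-sided), the smallest that its 36 arrangements allow.

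To test for a difference between the sexes without injury, the naïve females were compared with the naïve males. Csf1 did not pass the test (log2FC -0.055, SE 0.099, adjusted p = 0.760, female against male), in a comparison that called 0.0706% of genes in either direction. The SE exceeded the log2FC, so a small difference in either direction was not detectable with 2 rats per group. With the first naïve female left out the log2FC was 0.019.

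Among the injured rats Csf1 was 1.505-fold higher in females than in males (log2FC 0.59, SE 0.081, adjusted p = 0.0422), where 0.524% of genes were called as higher in females. Both CCI females lay above both CCI males, as in 24.7% of genes tested. Left out in turn, each of the CCI females took the call away, with a log2FC of 0.53 (adjusted p = 0.257) without the first and 0.65 (adjusted p = 0.154) without the second. The replicate number as a block also ended the call (log2FC 0.59, adjusted p = 0.103). The difference in the change itself was tested by the interaction of sex and CCI fitted on all 8 libraries, for which only the adjusted p (under 0.05) decided the call. The change of Csf1 was larger in females by a log2FC of 0.64 (SE 0.12, adjusted p = 0.0496), in a test that called 1.04% of genes in this direction and 1.59% in either. The interaction lies at the edge of its threshold. DESeq2 gave an adjusted p of 0.0113, whereas edgeR gave 0.0513 with DESeq2's size factors, 0.0540 with upper-quartile normalization and 0.0538 with the replicate number as a block. When the rats were left out singly, the log2FC stayed between 0.58 and 0.71 and the adjusted p ranged from 0.0486 to 0.190, so that the call was kept in 1 of 8 fits, the one without the second naïve female. In these fits of 7 libraries edgeR called between 0 and 563 of all genes. These comparisons share libraries with those of CCI and naïve rats and are not independent of them.

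**Figure D2:**
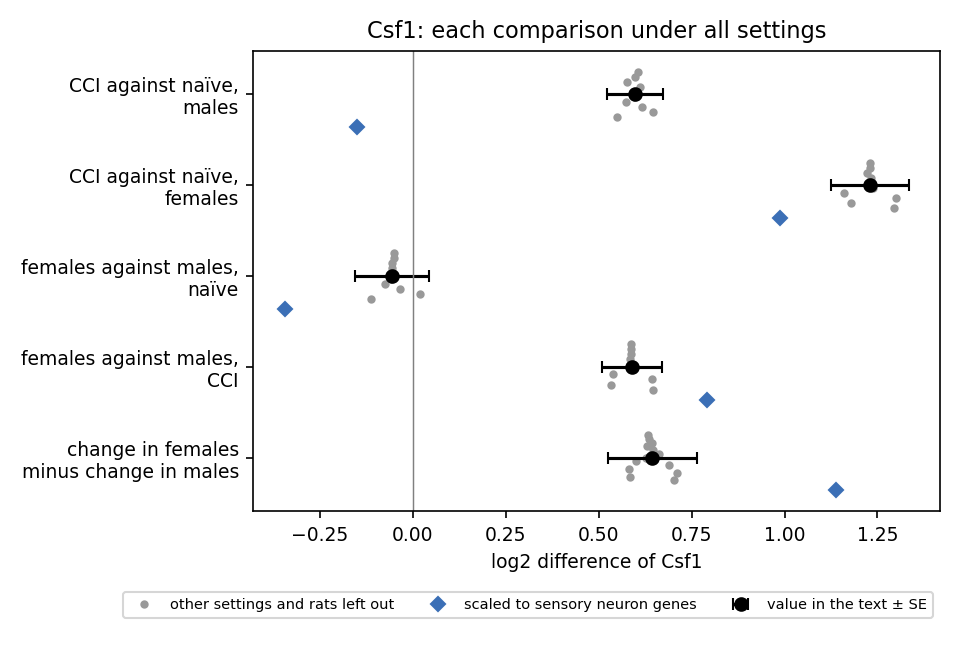
Log2 difference of Csf1 (horizontal axis) in each of the 5 comparisons (vertical axis). Black points are the values in the text with their SE, grey points are the values under other settings and with single rats left out, and blue diamonds are the values after scaling to 8 sensory neuron genes, where the males move from 0.60 to -0.15 and the females from 1.23 to 0.99.

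Because Csf1 after injury is known from sensory neurons, its values were set beside genes that mark these neurons. Of 16 such genes on the list, 8 have an identifier in the study's tables: the neurofilaments Nefl, Nefm and Nefh, the ubiquitin hydrolase Uchl1, the actin-binding protein Avil, the ATP receptor subunit P2rx3, and the neuropeptide genes Calca and Tac1. All 8 were called as upregulated in males, where 9.05% of genes were, their log2FC lying between 0.59 and 1.05 around a median of 0.69. In females 0 of the 8 passed both thresholds, their log2FC lying between 0.11 and 0.41 around a median of 0.23. The medians over all genes tested were -0.011 in males and -0.018 in females. Their summed level ran from 17604 to 19903 CPM in the naïve males and from 28901 to 29661 CPM after CCI, and from 21484 to 22152 CPM in the naïve females and from 22710 to 26975 CPM after CCI. No listed gene was at 0 in any library. Csf1 itself rose in males by less than 7 of these 8 genes, whereas in females its log2FC exceeded that of each of them. The study's tables list genes that it called on these libraries, so the named markers were partly picked by their own change.

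Relative to the mean log2 CPM of these 8 genes, Csf1 stood at -6.39 and -6.53 in naïve males, and at -6.64 and -6.57 in CCI males. The injured males were thus slightly lower than the naïve males on this scale. In females the same log2 ratio was -6.91 and -6.70 in naïve rats and -5.69 and -5.95 in CCI rats, so both injured rats were higher. The share of all genes separated in this way on this scale was not counted. With the libraries scaled to these genes, a setting chosen after the data were seen, edgeR gave Csf1 a log2FC of -0.15 (SE 0.13, adjusted p = 0.334) in males and 0.99 (SE 0.16, adjusted p = 1.6e-06) in females. This scaling moved the median log2FC of all genes by -0.75 in males and by -0.24 in females. On this scale the difference between the sexes in the change of Csf1 was 1.14 (SE 0.20, adjusted p = 0.0141). Injured females stood above injured males by 0.79 (SE 0.12, adjusted p = 0.0292). The 8 neuron genes had interactions from -0.65 to -0.37, so scaling to them raised the interaction of other genes too. The median over all genes moved by 0.49 for the interaction and by 0.20 between injured sexes. By interaction log2FC Csf1 held rank 2024, against 2029 without this scaling. The values on this scale are therefore not independent evidence of a sex difference. The part of the neuron genes in the rise of Csf1 in males was not tested.

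**Figure D3:**
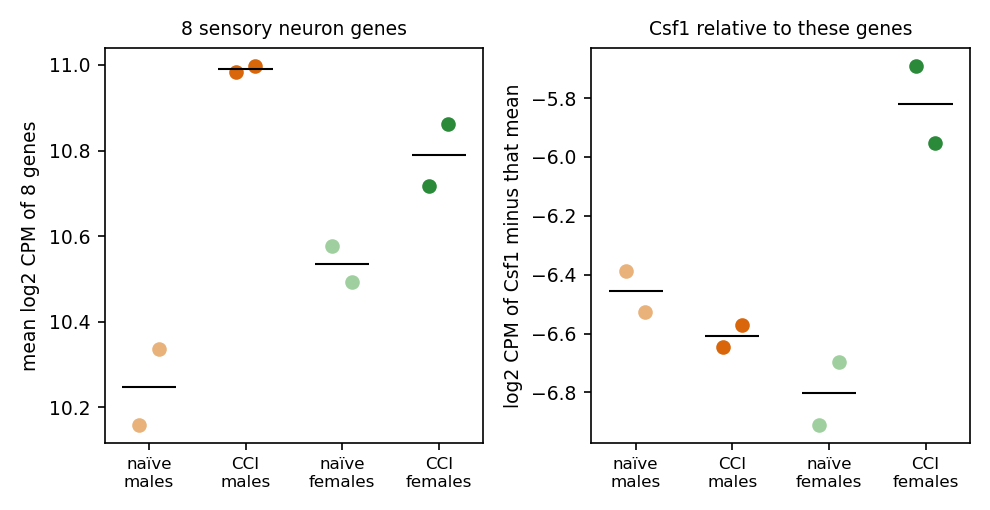
Mean log2 CPM of 8 sensory neuron genes (left) and log2 CPM of Csf1 minus that mean (right) in each of the 8 libraries, by group. Points are single rats and lines are group means, and on the right the CCI males at -6.64 and -6.57 lie below the naïve males, while the CCI females at -5.69 and -5.95 lie above all other rats.

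Genes of other cell types changed with CCI as well. Of 9 Schwann cell genes 6 are named (Mbp, Prx, Mag, Sox10, Drp2 and Ncmap), with a summed level from 10908 to 13284 CPM in the naïve males and from 3317 to 3472 CPM after CCI, and from 7649 to 9395 CPM in the naïve females and from 4258 to 5521 CPM after CCI. All 6 were called as downregulated in males (12.5% of all genes were) with a median log2FC of -1.52, and 2 of 6 in females (2% of all genes were) with a median of -0.43. Of 8 satellite glia genes 2 are named. Fabp7, a fatty acid carrier of these cells, fell in males (log2FC -0.88, SE 0.091) and in females (log2FC -0.73, SE 0.082), while the filament gene Gfap fell in males, with 43.6 and 32.6 CPM before and 19.7 and 19.3 CPM after CCI. In females Gfap was 39.5 and 28.8 CPM before and 70.1 and 37.4 CPM after CCI and did not pass the test (log2FC 0.65, adjusted p = 0.165). Fibroblast genes are named in 4 of 6 cases (Pdgfra, Dcn, Col1a1 and Col3a1). All 4 were called as downregulated in males, with a median log2FC of -0.66, and 0 of 4 in females, where the median was -0.044 and Dcn had an adjusted p of 0.0490 at a log2FC of -0.37. The 8 red blood cell genes are all named and differed between single rats, with summed levels of 139.5 and 1528 CPM among the 2 naïve males, whereas Csf1 was 13.6 and 13.97 CPM in the same rats. In the naïve females these genes summed to between 1589 and 2371 CPM and in the CCI females to between 197 and 245.7 CPM, and all 8 were called as downregulated in females. In males their median log2FC was -1.66 with 0 of 8 called (edgeR), and their interaction was called for 0 of 8. Of 10 muscle genes 4 are named. All 4 were called as upregulated in males (9.05% of all genes were) and 2 as downregulated in females (2% of all genes were). The interaction of sex and CCI was called for 1.59% of all genes. Among the markers it was called for 4 of the 6 Schwann cell genes and 3 of the 4 muscle genes. It was also called for 1 of the 4 fibroblast genes and 0 of the 2 satellite glia genes. As with the neuron genes, these markers were partly picked by their own change. The study's tables that name them list genes it called on these libraries. Of the immune cell genes, Cd79b of B cells (1 of 8 lymphocyte genes named) and the neutrophil genes Ngp and Np4 (2 of 6 named) were called as downregulated in females. Their log2FC in males was -0.86, -1.85 and -3.19, without a call, against -3.27, -3.21 and -3.13 in females. The interaction was called for none of these genes. In the 2 naïve males Cd79b was 0.076 and 1.36 CPM, Ngp 0.076 and 2.05 CPM, and Np4 0.038 and 1.39 CPM. The log2FC in males therefore rests on few counts that differ between the naïve rats. The part of these cell types in the change of Csf1 was not tested.

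The cells that receive the signal can be followed only to a small extent. Csf1r itself, Il34, and the other genes of the CSF family apart from Csf2ra are not analysed here, since the study's tables pair no identifier with them. The same holds for all 14 genes listed for signalling behind Csf1r and for 20 of 21 macrophage markers. Cd163, a scavenger receptor of resident macrophages, was 2.08 and 2.15 CPM in naïve males and 1.54 and 1.90 CPM in CCI males. In females it was 3.64 and 5.25 CPM in naïve rats and 5.71 and 5.96 CPM in CCI rats. The difference passed the test neither in males (log2FC -0.29, adjusted p = 0.310) nor in females (log2FC 0.39, adjusted p = 0.260). Injured females were above injured males in Cd163 (log2FC 1.77, SE 0.19, adjusted p = 0.0200), as they were in Csf1. In Cd163 the naïve females also stood above the naïve males, by a log2FC of 1.07 that did not pass the test (adjusted p = 0.105). The same naïve comparison gave -0.055 for Csf1. The interaction of sex and CCI was not called for Cd163 (0.69, adjusted p = 0.213). With a single named marker, the number of macrophages in these ganglia was not measured.

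Csf2ra encodes the ligand-binding chain of the receptor for CSF2, the growth factor of granulocytes and macrophages. It was 8.58 and 8.78 CPM in naïve males and 3.803 and 4.52 CPM in CCI males, so it fell where Csf1 rose (log2FC -1.06, SE 0.14, adjusted p = 0.00740). In females it was 5.73 and 5.63 CPM before and 5.71 and 4.07 CPM after CCI, and it did not pass the test (log2FC -0.22, adjusted p = 0.496). For the release of membrane-bound CSF1 from the cell surface, a step carried out by the protease Adam17, 1 of 5 listed genes is named. This is Rhbdf1, an inactive rhomboid protein that helps Adam17 to mature. Rhbdf1 was 106 and 90.4 CPM in naïve males and fell to 47.7 and 53.5 CPM after CCI, a log2FC of -0.95 (SE 0.10, adjusted p = 0.00586). In females it was 57.9 and 58.0 CPM in naïve rats and 47.9 and 42.4 CPM in CCI rats (log2FC -0.37, adjusted p = 0.0465), under the log2FC threshold.

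Macrophages and microglia divide in answer to CSF1, and 3 of 10 genes of dividing cells are named. Top2a, a topoisomerase of dividing cells, was 13.1 and 12.1 CPM in naïve males, 9.03 and 8.21 CPM in CCI males, 7.38 and 6.88 CPM in naïve females, and 11.6 and 12.5 CPM in CCI females. It fell in males (log2FC -0.54, adjusted p = 0.0152) and rose in females (log2FC 0.75, adjusted p = 0.0132). The interaction of sex and CCI was called for it (1.30, adjusted p = 0.0402). Cenpf, a protein of the kinetochore, also fell in males (log2FC -0.59, adjusted p = 0.0316) and rose in females (log2FC 0.90, adjusted p = 0.0224). Naïve females stood below naïve males by a log2FC of -0.82 for Top2a and -0.96 for Cenpf, without a call (adjusted p = 0.0954 for each). For Csf1 this value was -0.055. Injured females stood above injured males by 0.49 for Top2a (adjusted p = 0.108) and 0.54 for Cenpf (adjusted p = 0.175), also without a call. Ccna2, which encodes cyclin A2, passed the test in neither sex, with a log2FC of -0.43 and 0.19. The counts do not tell which cells these transcripts came from. Of 17 listed chemokines and cytokines that act on macrophages and microglia, Ccl21 alone is named. It did not pass the test after CCI in either sex (log2FC 0.20 in males and 0.22 in females), and it was higher in CCI females, with 10.4 and 10.3 CPM, than in CCI males, with 5.45 and 5.80 CPM (log2FC 0.88, adjusted p = 0.0417). The naïve females, with 9.09 and 8.53 CPM, were above the naïve males, with 6.04 and 3.796 CPM, by a similar log2FC of 0.84 that did not pass the test (adjusted p = 0.132), and the interaction was 0.039 (adjusted p = 0.948).

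Csf1 is one of a group of genes that sensory neurons raise when their axons are damaged. Of 23 other genes of this kind on the list, 18 have an identifier. In males 17 of 18 were called as upregulated (9.05% of all genes were), with a median log2FC of 1.95, and in females 16 of 18 (3.69% of all genes were), with a median of 1.77. The tables that name them include the study's own lists of genes changed by CCI, so these counts are not independent evidence. Socs3, an inhibitor of cytokine signalling, was the exception in males, and the neuropeptide genes Nts and Crh were those in females. Of these named genes, 17 of the 18 had a larger log2FC than Csf1 in males, and 13 of the 18 in females. Since they were partly picked by their own change, this does not place Csf1 among injury genes in general. Of all genes tested, 9.30% had a larger log2FC than Csf1 in males and 1.99% in females.

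Most of this group had a lower interaction log2FC than Csf1, as did most genes tested. This is given as a count with no test. Of the 18 genes, 3 had an interaction log2FC above that of Csf1, namely Atf3, Reg3b and Socs3, against 11.9% of all genes tested. It was above 0 in 12 of the 18, and its median over all genes tested was 0.016. The test of the interaction was passed by 3 of the 18 (1.59% of all genes passed). Atf3, a transcription factor of damaged neurons, was 11.7 and 11.0 CPM in naïve males, 67.7 and 70.9 CPM in CCI males, 12.7 and 11.8 CPM in naïve females, and 122 and 133 CPM in CCI females (interaction 0.78, adjusted p = 0.0412). As with Csf1, its naïve groups were close and the injured females lay above the injured males. Socs3 was 5.33 and 5.47 CPM in naïve males and 5.50 and 5.45 CPM in CCI males, but 2.98 and 2.91 CPM in naïve females and 8.14 and 6.32 CPM in CCI females (interaction 1.28, adjusted p = 0.0483). Nts, the gene of neurotensin, differed in the opposite direction (interaction -1.71, adjusted p = 0.0483). Among injured rats 6 of the 18, Atf3, Gal, Reg3b, Stac2, Vip and Ecel1, were called as higher in females, where 0.524% of all genes were. Of these 6 only Atf3 also passed the test of the interaction. For Vip the naïve females already stood above the naïve males by a log2FC of 1.31 (adjusted p = 0.174), against 1.29 after CCI.

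The AP-1 family of transcription factors responds early to nerve damage, and 3 of its 11 listed genes are named, Atf3 among them. Fos was 6.94 and 6.99 CPM in naïve males, 6.42 and 4.68 CPM in CCI males, 3.51 and 4.59 CPM in naïve females, and 8.01 and 7.21 CPM in CCI females, and it rose in females (log2FC 0.90, adjusted p = 0.0255) but did not pass the test in males (log2FC -0.32, adjusted p = 0.223). Its interaction missed the threshold (1.24, adjusted p = 0.0659). Mafk, a small Maf protein, had a log2FC of -0.45 in males (adjusted p = 0.0154), under the log2FC threshold. In females its log2FC was 0.18 (adjusted p = 0.231), so it was called in neither sex. Its interaction passed at the edge of the threshold (0.64, adjusted p = 0.0499).

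**Figure D4:**
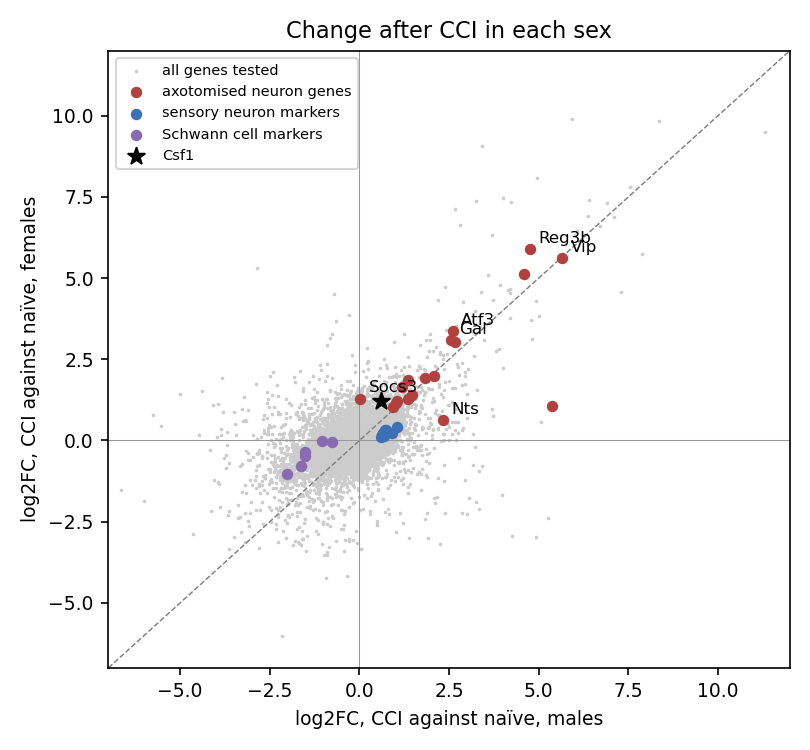
Log2FC of CCI against naïve rats in males (horizontal axis) and in females (vertical axis) for the 16988 genes tested, with the dashed line marking equal change. Csf1 (star, 0.60 and 1.23) lies above the line, as do 12 of the 18 axotomised neuron genes, Atf3, Gal, Reg3b and Socs3 among them. The sensory neuron markers lie below it with males from 0.59 to 1.05, and the Schwann cell markers lie at negative values in males.

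Genes whose course over the 8 libraries was most like that of Csf1 were found by the root-mean-square difference of log2 CPM after centring each gene on its mean, a description without a test. Csf1 itself spread by 0.50 around its mean on this measure, the median difference from it over 16987 genes was 0.56, and no gene came within 0.1. Of the 10 nearest genes 2 have a symbol, Atp2b4 and Tnik, and the nearest of all was ENSRNOG00000026293 at 0.12. Atp2b4, a calcium pump of the plasma membrane, was at 0.13 and Tnik, a kinase of the cytoskeleton and of neurite growth, at 0.15. The next named genes were Gap43 of the growth cone (0.16), the adhesion receptor PVR (0.17), Rdh16 (0.17), the interleukin 4 receptor chain Il4r (0.17), the stress gene Gadd45a (0.18), the tubulins Tubb2b (0.18) and Tubb6 (0.18), and the actin cross-linker Flnc (0.20). Atp2b4 had a log2FC of 0.85 in males and 1.35 in females, and Tnik of 0.91 and 1.35. Gap43 had closer values in the sexes, at 0.93 and 1.02, while Il4r was at 0.33 and 0.85, PVR at 0.34 and 0.96 and Flnc at 0.23 and 0.90. The 10 named genes were picked from those with a symbol, most of which the study had called on these libraries.

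**Figure D5:**
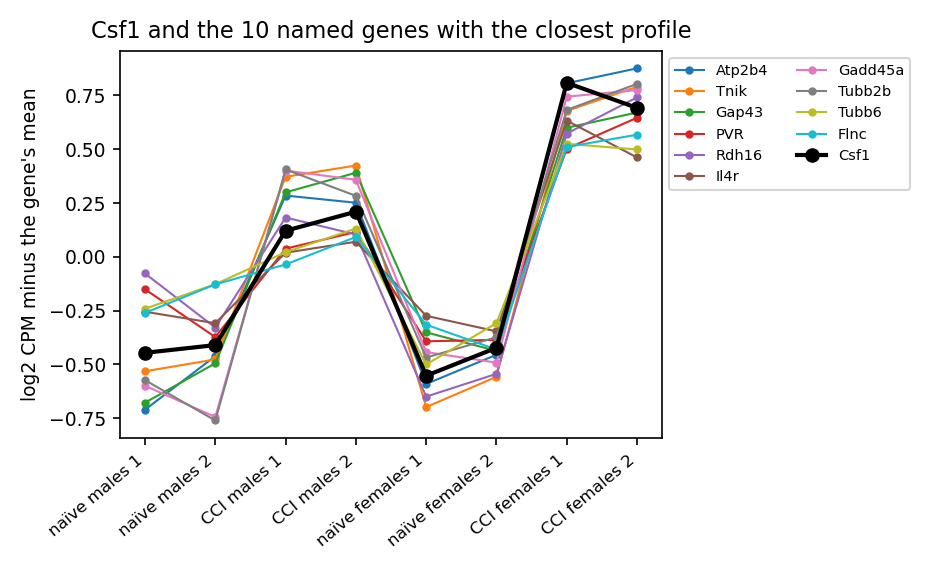
Log2 CPM minus the mean of each gene (vertical axis) in the 8 libraries (horizontal axis) for Csf1 in black and the 10 named genes closest to it in colour. Lines only join the values of 1 gene, and in all of them both CCI females are the highest libraries, with the CCI males between them and the naïve rats for Csf1.

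In the RefSeq annotation of the GRCr8 assembly the protein-coding neighbours of Csf1 are Ahcyl1 and Eps8l3, and the long non-coding RNA LOC120100914 overlaps Csf1. None of them is paired with an identifier in the study's tables. The strand setting of the read counting is not given in the sources used here, so reads of an overlapping transcript cannot be told apart from those of Csf1 in this table.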

How the data were processed

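The deposited table holds raw counts of reads per Ensembl gene. According to the study's methods the authors made strand-specific poly(A) libraries, sequenced them as paired ends in 2 batches, aligned reads to rn6 with HISAT2, removed ribosomal RNA reads and obtained the counts with featureCounts. The batch of each library is not given in the sources used here, but the column headers of the first naïve male and the first CCI male carry an added letter. All columns were used.

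Analyses used R 4.3.3, edgeR 4.0.16 and DESeq2 1.42.0. Genes were kept with filterByExpr (minimum count 10, minimum total count 15), scaled with TMM, and tested with edgeR's quasi-likelihood test on the 4 libraries compared, or on all 8 for the interaction. Log2 CPM used a prior count of 2, and the SE is the log2FC divided by the square root of F. The fit was tested on simulated data. Symbols came from the study's tables, of which 1960 identifiers were used (11.5% of the genes tested), and 1 gene is not reported here. Text names Csf1, listed genes that have a symbol, and the 10 closest profiles. The gene and lists were chosen with earlier results of these data known. Alternatives were DESeq2, 2 other normalizations, no filter, all 8 libraries in the fit, a replicate block and leaving out each library.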

Additional observations from a re-analysis of the deposited data

Results flagged for a closer look

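The change of Csf1 after CCI differed between the sexes by the test of the interaction of sex and CCI, with a log2FC 0.64 higher in females than in males (SE 0.12, adjusted p = 0.0496). This interaction lies at the edge of its threshold and lost its call under several of the settings given below. Between rats of the same number the log2 CPM of CCI minus naïve was 0.57 and 0.62 in males and 1.36 and 1.11 in females. The labels give same-numbered rats no shared animal, batch or day. These differences also come from the same libraries as the interaction, so they are not independent evidence.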

How the results depend on the processing

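With each rat left out in turn the log2FC of Csf1 ranged from 0.55 to 0.65 after CCI in males, from 1.16 to 1.30 in females, from -0.11 to 0.019 between naïve sexes (above 0 without the first naïve female), from 0.53 to 0.65 between injured sexes and from 0.58 to 0.71 for the interaction, and the difference over 8 rats from 0.88 to 0.95. Other settings kept all 5 directions except scaling to 8 sensory neuron genes, added after seeing the data, which gave -0.15 in males. The interaction lost its call with DESeq2 size factors (0.63, adjusted p = 0.0513), upper-quartile normalization (0.64, adjusted p = 0.0540) and the replicate block (0.65, adjusted p = 0.0538). The comparison of injured sexes lost it with the replicate block (0.59, adjusted p = 0.103), and the block changed no call of Csf1 beyond these 2. The labels give same-numbered rats no shared animal, batch or day, though the headers of the first males share an added letter. Over 8 rats, exchanging labels without regard to sex gave a difference of 0.91 with an exact permutation p = 0.0286, and the additive edgeR model gave 0.92 with an adjusted p = 0.00195. The listed genes, Csf1 among them, were named through the study's tables, most of whose genes the study had called on these libraries. Counts of calls among them are therefore not independent evidence. Of the 63 listed genes, 30 were called up (9.05% of all genes were) and 16 down (12.5%) in males. In females 20 were called up (3.69% of all genes were) and 16 down (2%). Leaving out rats gave 0 to 35 and 0 to 25 in males, and 16 to 22 and 9 to 18 in females. Without either CCI female 9 were called down in females, without the first naïve male 25 in males, and the counts of 0 came without the first CCI male, where edgeR at an unadjusted p under 0.05 had 30 up and 18 down. With edgeR over all 8 libraries 6 were called down in females. The cause of these changes was not tested. The number of all genes called, on which the background shares rest, was, for the interaction, 270 with edgeR, 1573 with DESeq2 and 1032 without the filter on low counts. For injured sexes they were 180 with edgeR, 375 with DESeq2, 284 without the filter and 68 with the replicate block, and for naïve sexes 12 with edgeR, 1014 with DESeq2, 130 without the filter, 6 with the block and 906 over all 8 libraries. Scaling to neuron genes gave 10839 (3663 without it) in males, 2908 (967) in females, 2819 and 449 between naïve and injured sexes, and 4733 for the interaction. With single rats left out the number of all genes called ranged from 0 to 3722 in males, from 84 to 1836 in females, from 6 to 327 between naïve sexes, from 32 to 656 between injured sexes and from 0 to 563 for the interaction.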

Other observations

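The column headers of the first naïve male and the first CCI male carry an added letter that the other columns lack. Between these libraries Csf1 was 0.57 higher after CCI in log2 CPM, and between the other naïve and CCI males it was 0.62 higher, so the rise was present in both pairs. Over all genes tested, the deviations of the same-numbered males from their group means correlated with r = 0.73 across genes, which are not independent replicates, against -0.0079 in females.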
